A study of Mus musculus with 6 samples.

Results

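Chemokine ligand genes were examined in osteoblasts (OBs) from ectopic bone that BMP-2 had induced in mice. The members were chosen by gene symbol alone, as every listed symbol that starts with Ccl or Cxcl and ends in a number, with a final a or b allowed for Ccl, together with *Cx3cl1* and *Xcl1*. This rule found 38 of the 23284 genes listed. No FPKM threshold entered it, but the family was taken up with earlier results of these samples known, so the differences between the days are given here as a description of these 6 samples.

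All samples came from *Col2.3*-ECFP mice, which carry a cyan fluorescent reporter (ECFP) under a type I collagen promoter, so the sort takes cells in which this promoter is active. The methods give male animals of 12 to 16 weeks, in which a collagen sponge with 2.5 μg of recombinant human BMP-2, a bone morphogenetic protein, was placed under the skin of the back. ECFP+ OBs were collected on day 10 after implantation (n = 3) or on day 14 (n = 3), and the comparison asked how gene expression in OBs differed between these days. Cells were released with 0.25% trypsin (15 min) and then 0.2% collagenase II (40 min). The collagenase step was run 1 time for day 10 and 2 times for day 14, so its number of rounds cannot be told apart from the day. Cells carrying CD45, a surface protein of blood cells, and dead cells were gated out. The titles place all 3 later samples on day 14, which was used here, whereas their free-text descriptions give day 14, 15 and 16 for replicates 1, 2 and 3. The labels call the samples biological replicates but do not say whether each came from 1 mouse or from several.

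Chemokines are small secreted proteins that bind receptors on leukocytes and other cells and steer their migration. CXC ligands such as *Cxcl1*, *Cxcl2* and *Cxcl5* attract neutrophils through CXCR2, CC ligands such as *Ccl2* and *Ccl7* attract monocytes through CCR2, and CXCL12 retains haematopoietic cells in bone marrow through CXCR4. Cells of the OB lineage are a known source of CXCL12 and of several inflammatory chemokines, and many inflammatory chemokine genes are transcribed under NF-kB, whereas *Cxcl9* and *Cxcl10* are classical interferon targets.

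The promoters of the 5 most highly expressed members that have an entry in the RefSeq table (GRCm38.p6), and of *Cxcl3*, are shown. Of the 5, *Cxcl1*, *Cxcl2* and *Cxcl10* hold the NF-kB consensus, which lies close to the start in the 3 CXCR2 ligand genes shown. *Cxcl3* was added after its match had been seen, so its match was fixed by that choice and is left out of this count. Each run is written 5′ to 3′ on the gene's own strand, from 250 bases before the annotated start to 50 after it, and capitals mark matches to the NF-kB consensus (GGG, a purine, any base, A or T, a pair of pyrimidines, CC) or to TATAAA. The windows are chr5:90890995-90891294 (*Cxcl1*), chr5:90903649-90903948 (*Cxcl2*), chr5:90785851-90786150 (*Cxcl3*), chr5:92348840-92349139 on the minus strand (*Cxcl10*), chr11:82114935-82115234 (*Ccl8*) and chr6:117168285-117168584 (*Cxcl12*).
Cxcl1: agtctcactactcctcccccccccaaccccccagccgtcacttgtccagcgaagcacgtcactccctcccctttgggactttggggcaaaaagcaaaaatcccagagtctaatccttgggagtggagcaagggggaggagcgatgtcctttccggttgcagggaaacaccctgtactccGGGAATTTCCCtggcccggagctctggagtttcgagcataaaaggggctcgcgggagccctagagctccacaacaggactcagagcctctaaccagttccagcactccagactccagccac
Cxcl2: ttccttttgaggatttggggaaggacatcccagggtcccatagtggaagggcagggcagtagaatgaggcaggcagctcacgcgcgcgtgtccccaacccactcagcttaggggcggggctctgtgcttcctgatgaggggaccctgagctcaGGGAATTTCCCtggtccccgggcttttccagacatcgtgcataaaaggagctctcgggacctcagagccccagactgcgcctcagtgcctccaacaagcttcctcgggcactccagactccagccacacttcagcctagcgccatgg
Cxcl3: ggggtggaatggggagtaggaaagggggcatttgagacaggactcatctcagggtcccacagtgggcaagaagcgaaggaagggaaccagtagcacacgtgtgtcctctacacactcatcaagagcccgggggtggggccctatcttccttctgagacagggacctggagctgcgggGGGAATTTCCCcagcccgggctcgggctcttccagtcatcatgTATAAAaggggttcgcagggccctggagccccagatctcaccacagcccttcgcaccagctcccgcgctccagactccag
Cxcl10: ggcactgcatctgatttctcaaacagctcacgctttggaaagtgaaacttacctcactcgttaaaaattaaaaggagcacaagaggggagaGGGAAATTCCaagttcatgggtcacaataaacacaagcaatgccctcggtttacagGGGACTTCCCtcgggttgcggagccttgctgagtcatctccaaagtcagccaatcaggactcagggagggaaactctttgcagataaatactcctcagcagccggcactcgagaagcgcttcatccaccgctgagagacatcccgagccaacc
Ccl8: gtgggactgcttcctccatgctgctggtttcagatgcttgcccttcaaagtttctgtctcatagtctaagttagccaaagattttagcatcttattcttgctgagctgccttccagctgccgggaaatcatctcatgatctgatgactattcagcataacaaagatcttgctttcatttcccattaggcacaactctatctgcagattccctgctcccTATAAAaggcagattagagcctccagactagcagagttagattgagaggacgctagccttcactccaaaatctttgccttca
Cxcl12: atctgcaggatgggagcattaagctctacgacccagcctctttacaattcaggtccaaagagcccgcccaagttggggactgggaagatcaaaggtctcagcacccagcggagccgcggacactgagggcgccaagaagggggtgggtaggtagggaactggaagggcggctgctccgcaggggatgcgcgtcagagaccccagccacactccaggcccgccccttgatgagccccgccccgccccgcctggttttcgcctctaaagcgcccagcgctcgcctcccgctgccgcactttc

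The same 11 letters, GGGAATTTCCC, began 71 bases before the start of *Cxcl1*, 97 bases before that of *Cxcl2* and 73 bases before that of *Cxcl3*. They match the consensus on both strands, with the matches overlapping. In *Cxcl10*, GGGAAATTCC began 159 bases and GGGACTTCCC 103 bases before the start. Over the 27 members with an entry, with 33 windows in all, 7 genes held the consensus on either strand (*Ccl9*, *Ccl20*, *Ccl27a*, *Cxcl1*, *Cxcl2*, *Cxcl3* and *Cxcl10*), and it was found in 4.51% of all 32851 windows of this length. TATAAA was found on either strand in 10 members and in 13.6% of all windows. The AP-1 letters TGANTCA were found in 6 members (7.81% of all windows), the C/EBP letters TTGCNNAA in 4 (10.8%) and the interferon-stimulated element TTTCNNTTTC in 3, *Ccl19*, *Cxcl10* and *Cxcl14* (3.44%). These are matches of letters within 300 bases, and binding was not measured. *Ccl2*, *Ccl4*, *Ccl5*, *Ccl7*, *Ccl11*, *Ccl24*, *Ccl26*, *Cxcl5*, *Cxcl11*, *Cxcl16* and *Cxcl17* had no entry.

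Chemokine ligand transcripts were abundant in the sorted OBs on both days. FPKM is a read count scaled by transcript length and by sequencing depth, so levels of different genes can be compared, but only approximately where transcripts are short. In day 14 replicate 1, *Ccl8* at 458 FPKM corresponded to an estimated 576.5 reads, and *Cxcl12* at 549 FPKM to 13452.8. Such estimates take the longest annotated transcript of a gene, 511 bases for *Ccl8* and 5627 bases for *Cxcl12*, which has 4 transcripts. They are too high where shorter transcripts are expressed. *Cxcl1* was the highest member in each of the 6 samples and ranked 17 of all genes by its mean of 1597 FPKM. *Cxcl1*, *Ccl7*, *Ccl2* and *Cxcl12* were at 100 FPKM or more in every sample. The members' FPKM summed to 1891, 1599 and 3428 on day 10 and to 5813, 3183 and 5874 on day 14 (replicates 1, 2 and 3 in that order, here and throughout), or 2306 ± 983 and 4957 ± 1536 (SD, n = 3). The day 14 replicate 2 sum lay below that of day 10 replicate 3, so the days overlapped. These sums were between 0.328% and 1.28% of all FPKM of a sample. The 5 members with the highest means over the 6 samples held 84.7% to 91.6% of the sum in each sample.

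Of the 38 members, 25 had a mean of at least 1 FPKM over the 6 samples and are described with their values, from *Cxcl1* down to *Ccl19* at 1.04 FPKM, with *Cxcl17* at 0.881 FPKM just outside. A further 10 had means of 0.144 to 0.881 FPKM and at most an estimated 15.1 reads in any sample. *Ccl21a* (mean 0.0277 FPKM) was below the filter of a mean above 0.1 FPKM, and *Ccl21b* and *Ccl27b* were listed at 0 in every sample. The copies of *Ccl21* and of *Ccl27* on chromosome 4 are nearly identical, so reads could be split or lost between them and their values are uncertain. In all, 35 members entered the comparison on the scale of log2(FPKM + 0.1).

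**Figure D1:**
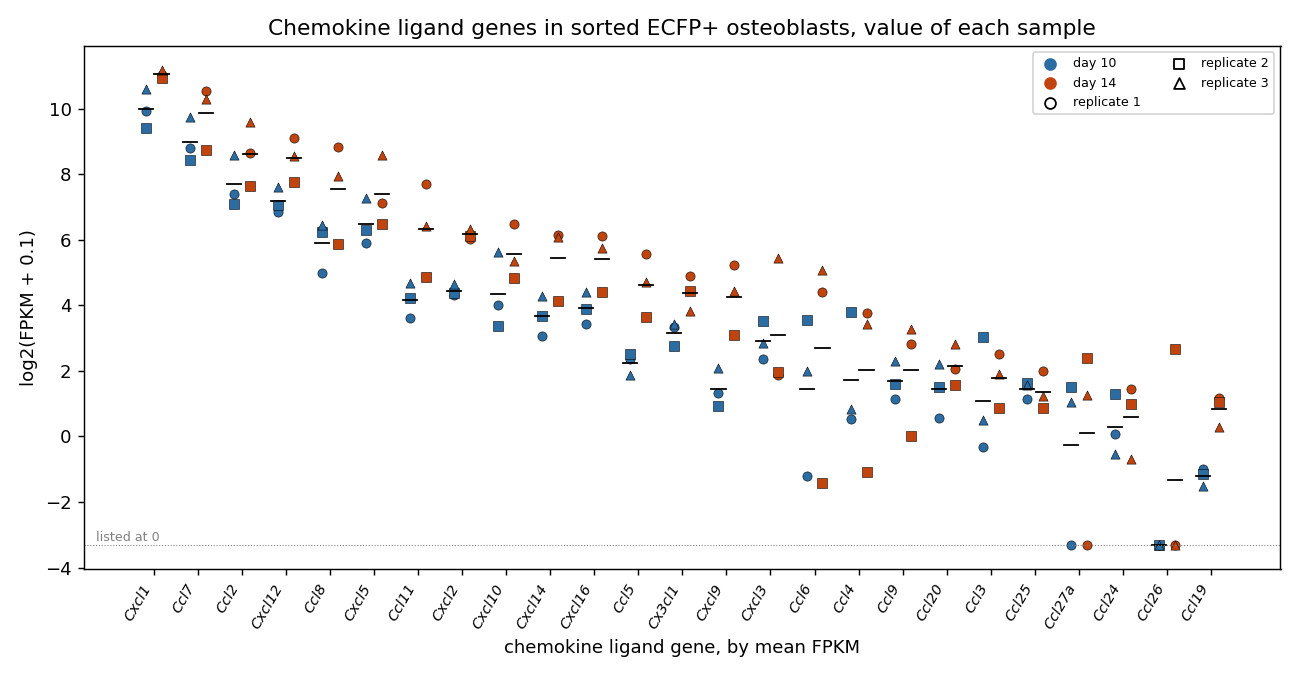
Level of each of the 25 members with a mean of at least 1 FPKM, as log2(FPKM + 0.1) on the vertical axis, with members ordered by mean FPKM. Blue symbols are the 3 day 10 samples, orange symbols the 3 day 14 samples, shapes the replicate numbers, black bars the means of each day, and the dotted line the position of 0 FPKM. The 3 day 14 samples of *Cxcl2* lie together at 65.2 to 80.7 FPKM, above the 19.6 to 24.9 FPKM of day 10, whereas those of *Ccl6* and *Ccl4* spread over most of the range.

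Day 14 replicate 2 stood apart from the other two day 14 samples, with chondrocyte markers at 2212 FPKM in sum against 167 and 146, and counts without it are also given. Most members had a higher mean on day 14, but the days were clearly apart in a minority. The mean of log2(FPKM + 0.1) was higher on day 14 for 30 of the 35 members and lower for 5. Of all 19526 genes tested, 9085 were higher and 10441 lower. The median log2 fold change (day 14 minus day 10) of the members was 0.93, beside −0.04 over all genes tested. Without the 4 members that were at 0 in all samples of a day, for which no fold is given, 27 of 31 members were higher. Their median was 0.91. By the criterion of a fold change over 2 in FPKM + 0.1, 17 members were higher on day 14, 3 of them at 0 in all day 10 samples, where 5.25% of all genes were called, and 2 were lower (*Ccl12* and *Ccl1*, the latter at 0 on day 14), where 8.39% were called. All 3 day 14 values lay above all 3 day 10 values for 10 members (7.59% of all genes), and for none did they lie below (6.67% of all genes). Across all genes limma gave an adjusted p under 0.05 to 0.0154% (3 of 19526 genes), and *Cxcl2* was the 1 member among them. An unadjusted limma p under 0.05 was given to 12 members, all higher on day 14, where 5.6% of all genes were called in that direction and 10.0% in either. *Ccl17*, at 0 in all day 10 samples and above the filter only through day 14, is among these 12 and among the 10 with separated days, and without it the counts were 11 and 9. In RNA from sorted populations, fewer cells of a type and less RNA per cell cannot be told apart.

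**Figure D2:**
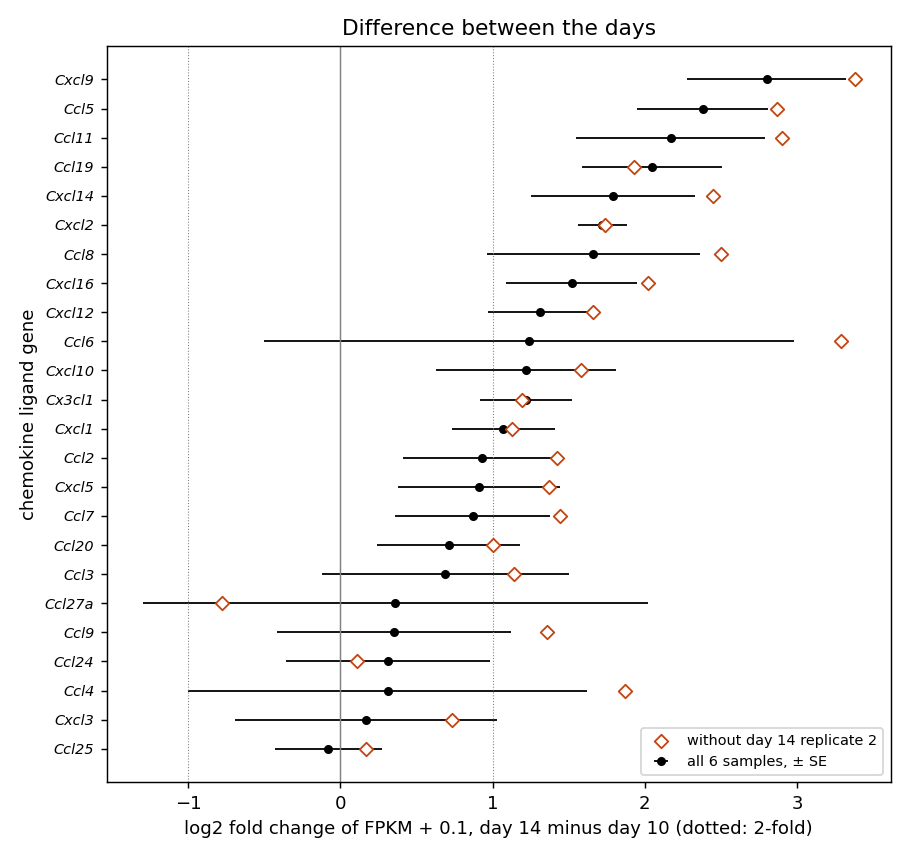
Log2 fold change of FPKM + 0.1 between the days (day 14 minus day 10, horizontal axis) for the 24 members with a mean of at least 1 FPKM that were above 0 on both days. Black points with bars are limma estimates ± SE over all 6 samples, and open diamonds are the estimates without day 14 replicate 2. All black points but that of *Ccl25* (−0.08) lie right of 0, and among the diamonds that of *Ccl27a* alone lies left of it (−0.78). The bar of *Cxcl2* (SE 0.16) is the shortest shown.

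The ligands of CXCR2 held the most abundant member and the member with the least spread. *Cxcl2* measured 19.6, 20.6 and 24.9 FPKM in the day 10 samples and 65.2, 69.1 and 80.7 FPKM in the day 14 samples. Its means of 21.7 ± 2.85 and 71.7 ± 8.03 FPKM (SD, n = 3) differed by 1.72 on the log2 scale (SE 0.16, a 3.30-fold difference), which is larger than the spread between replicates, and its adjusted p from limma was 0.0225. That p stayed under 0.05 in 7 of 14 alternative settings and was 0.0671 when microRNA and small nucleolar RNA genes were left out of the adjustment. *Cxcl1* measured 974, 679 and 1557 FPKM in the day 10 samples and 2089, 1956 and 2325 FPKM in the day 14 samples. The days did not overlap (1070 ± 447 and 2123 ± 187 FPKM, SD, n = 3), the log2 fold change was 1.07 (SE 0.34), and day 14 replicate 2 was close to the other two, as for *Cxcl2*. The ratio of *Cxcl1* to *Cxcl2* lay between 33.0 and 62.5 on day 10 and between 28.3 and 32.0 on day 14.

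The other CXCR2 ligands overlapped between the days. *Cxcl5* measured 59.5, 78.5 and 155 FPKM in the day 10 samples and 140, 89.1 and 385 FPKM in the day 14 samples (log2 fold change 0.91, SE 0.53), and day 14 replicate 3 alone lay above all day 10 samples. *Cxcl3*, whose promoter carries the same NF-kB letters as those of *Cxcl1* and *Cxcl2*, measured 5.07, 11.3 and 7.17 FPKM in the day 10 samples and 3.53, 3.77 and 42.9 FPKM in the day 14 samples. Its day 14 replicates 1 and 2 lay below every day 10 sample and replicate 3 above (log2 fold change 0.17, SE 0.86). *Cxcl15* was below 1 FPKM in every sample. All 5 genes lie side by side on chromosome 5, between 90759360 and 90905938 (mm10), and 2 of them had separated days.

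Monocyte attractants were the second large group. *Ccl7* measured 443, 344 and 858 FPKM in the day 10 samples and 1492, 428 and 1263 FPKM in the day 14 samples. *Ccl2*, the principal ligand of CCR2, measured 168, 136 and 381 FPKM in the day 10 samples and 397, 199 and 766 FPKM in the day 14 samples. In both genes day 14 replicates 1 and 3 lay above all day 10 samples and replicate 2 lay among them, with log2 fold changes of 0.87 (SE 0.51) and 0.93 (SE 0.52). *Ccl7* exceeded *Ccl2* in every sample, by 2.25 to 2.64 times in FPKM on day 10 and by 1.65 to 3.76 times on day 14. These ratios also depend on the transcript lengths used. *Ccl8*, which in the mouse also binds CCR8, measured 31.7, 75.6 and 86.4 FPKM in the day 10 samples and 458, 57.8 and 245 FPKM in the day 14 samples (log2 fold change 1.66, SE 0.70). Here too replicate 2 lay within the day 10 range, and replicate 1 was the highest. *Ccl12* was above 0 in 3 samples and at most 2.35 FPKM.

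Among the ligands of CCR3, the receptor of eosinophils, *Ccl11* (eotaxin) measured 12, 18.7 and 25.5 FPKM in the day 10 samples and 209, 29.2 and 86.2 FPKM in the day 14 samples. The days were separated, but day 14 replicate 2 was only just above day 10 replicate 3, and the day 14 mean of 108 ± 92.0 FPKM (SD, n = 3) rested mainly on replicate 1 (log2 fold change 2.17, SE 0.62). *Ccl24* measured 0.944, 2.35 and 0.593 FPKM in the day 10 samples and 2.63, 1.87 and 0.523 FPKM in the day 14 samples. Its days overlapped, on an estimated 3.9 to 13.9 reads per sample. *Ccl26* was listed at 0 in 5 samples and at 6.30 FPKM in day 14 replicate 2, where this value on a short transcript corresponds to about 1.8 estimated reads, so no fold is given. *Ccl2*, *Ccl7*, *Ccl11*, *Ccl12*, *Ccl8* and *Ccl1* lie together on chromosome 11 between 82035571 and 82305690, and of these *Ccl11* alone had separated days.

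*Ccl5* and the macrophage inflammatory protein genes *Ccl3*, *Ccl4*, *Ccl6* and *Ccl9*, whose products act on T cells, monocytes and other leukocytes, differed in their patterns. *Ccl5* measured 5.05, 5.63 and 3.58 FPKM in the day 10 samples and 46.7, 12.5 and 25.8 FPKM in the day 14 samples. The lowest day 14 sample was above the highest of day 10 (log2 fold change 2.38, SE 0.43), on an estimated 10.8 to 92.1 reads per sample. *Ccl6* measured 0.332, 11.7 and 3.87 FPKM in the day 10 samples and 21.0, 0.274 and 33.5 FPKM in the day 14 samples (log2 fold change 1.24, SE 1.74), with the lowest and the highest of all its values on day 14. *Ccl9* measured 2.11, 2.92 and 4.81 FPKM in the day 10 samples and 6.95, 0.902 and 9.50 FPKM in the day 14 samples (log2 fold change 0.35, SE 0.77). *Ccl4* measured 1.35, 13.7 and 1.70 FPKM in the day 10 samples and 13.5, 0.373 and 10.6 FPKM in the day 14 samples (log2 fold change 0.31, SE 1.31). *Ccl3* measured 0.701, 8.12 and 1.32 FPKM in the day 10 samples and 5.64, 1.74 and 3.65 FPKM in the day 14 samples (log2 fold change 0.69, SE 0.81). *Ccl3* and *Ccl4* were highest in day 10 replicate 2, and *Ccl4*, *Ccl6* and *Ccl9* were lowest in day 14 replicate 2. Estimated reads per sample were 0.9 to 32.4 for *Ccl4*, 1.8 to 24.0 for *Ccl3*, 2.0 to 286.7 for *Ccl6* and 14.9 to 186.7 for *Ccl9*. The lowest values of *Ccl3*, *Ccl4* and *Ccl6* are therefore imprecise. The 5 genes lie on chromosome 11 between 83525778 and 83664683, so neighbours in this cluster differed in their pattern over the samples.

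The ligands of CXCR3, a receptor of activated T cells, included the member with the largest fold difference among those above 0 on both days. *Cxcl9* measured 2.42, 1.82 and 4.19 FPKM in the day 10 samples and 37.3, 8.49 and 21.7 FPKM in the day 14 samples (log2 fold change 2.80, SE 0.52, a 6.96-fold difference of FPKM + 0.1). The days were separated, with day 14 replicate 2 nearest to day 10. *Cxcl10*, its neighbour on chromosome 5 between 92321347 and 92365485, measured 16.0, 10.2 and 49.3 FPKM in the day 10 samples and 89.7, 28.3 and 40.4 FPKM in the day 14 samples (log2 fold change 1.22, SE 0.59). Day 10 replicate 3 lay above the other two day 10 samples and above 2 of the day 14 samples, so the days overlapped. *Cxcl11*, annotated as a polymorphic pseudogene and the third gene there, was at most 0.513 FPKM.

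The constitutive CXC ligands include the retention signal *Cxcl12*, which measured 114, 134 and 196 FPKM in the day 10 samples and 549, 218 and 379 FPKM in the day 14 samples. The days were separated (148 ± 43.1 and 382 ± 166 FPKM, SD, n = 3; log2 fold change 1.31, SE 0.34). *Cxcl16*, a membrane-bound ligand of CXCR6, measured 10.7, 14.7 and 21.1 FPKM in the day 10 samples and 69.1, 21.2 and 53.8 FPKM in the day 14 samples (log2 fold change 1.52, SE 0.43), separated by 21.2 against 21.1 FPKM at the nearest pair. *Cxcl14*, expressed in skin and other epithelia, measured 8.19, 12.6 and 19.2 FPKM in the day 10 samples and 70.3, 17.3 and 68.1 FPKM in the day 14 samples (log2 fold change 1.79, SE 0.54), and replicate 2 of day 14 was the 1 sample that overlapped with day 10. *Cxcl13*, the B cell attractant, and *Cxcl17* were at most 1.19 and 2.38 FPKM.

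*Cx3cl1* (fractalkine), a membrane-bound ligand of CX3CR1, measured 9.94, 6.62 and 10.6 FPKM in the day 10 samples and 29.8, 21.5 and 14.0 FPKM in the day 14 samples. The days were separated (log2 fold change 1.22, SE 0.30), and here replicate 3 was the lowest of day 14. *Ccl19*, the lymph node homing ligand of CCR7, measured 0.399, 0.355 and 0.251 FPKM in the day 10 samples and 2.14, 1.97 and 1.11 FPKM in the day 14 samples (log2 fold change 2.05, SE 0.46), also separated but on an estimated 1.1 to 6.3 reads per sample, so its fold is imprecise. *Ccl17* was at 0 in all day 10 samples and at 0.715, 0.551 and 2.31 FPKM on day 14, on at most 4.6 estimated reads, and *Xcl1* was above 0 in day 14 replicate 3 alone, at 1.93 FPKM. A read floor of 3 reads on 1000 usable bases corresponded to 0.386 to 0.661 FPKM and to more on transcripts as short as these.

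The ligands of CCR6, CCR9 and CCR10, receptors of mucosal and skin homing, showed little difference relative to their spread. *Ccl20* (CCR6) measured 1.37, 2.77 and 4.56 FPKM in the day 10 samples and 4.05, 2.84 and 6.92 FPKM in the day 14 samples (log2 fold change 0.71, SE 0.47), with overlap. *Ccl25* (CCR9) measured 2.10, 2.99 and 2.87 FPKM in the day 10 samples and 3.86, 1.73 and 2.26 FPKM in the day 14 samples (log2 fold change −0.08, SE 0.35), the only one of the 25 with a lower day 14 mean on the log scale. *Ccl27a* (CCR10) was listed at 0 in replicate 1 of both days, at 2.77 and 1.95 FPKM in the other two day 10 samples and at 5.13 and 2.29 FPKM in the other two day 14 samples, subject to its near-identical copy. *Ccl22* and *Ccl28* were at most 1.23 and 0.805 FPKM, and *Ccl1* was above 0 in day 10 replicate 3 alone, at 0.864 FPKM.

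**Figure D3:**
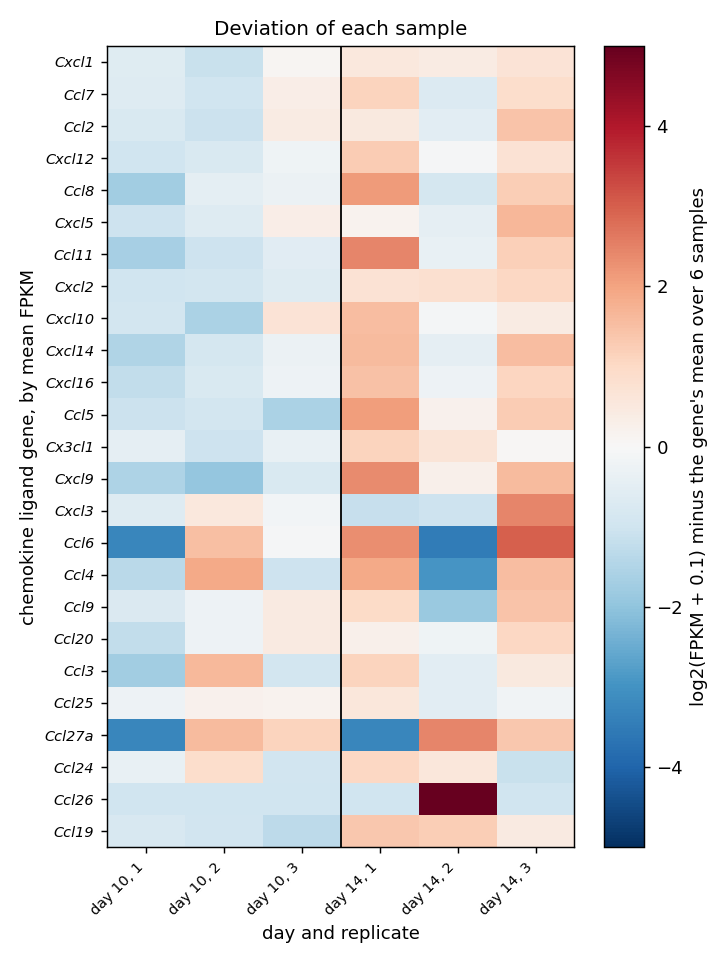
Deviation of each sample (columns) from a member's own mean over the 6 samples, as log2(FPKM + 0.1), for the 25 members (rows, by mean FPKM), with red above and blue below the mean. Most rows are red in day 14 replicates 1 and 3 and paler or blue in day 14 replicate 2. *Cxcl1*, *Cxcl2*, *Cx3cl1*, *Ccl19*, *Ccl5* and *Cxcl9* lie above their own mean in all 3, *Ccl5* and *Cxcl9* least so in replicate 2.

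The samples of day 14 did not behave alike. Replicates 1 and 3 lay above all day 10 samples for 18 members each of the 25, and replicate 2 for 11, where the shares over all genes with a mean of at least 1 FPKM were 28.9%, 36.9% and 33.5%. Replicate 2 was the lowest of day 14 for 18 of the 25 (29.1% of all genes), and replicate 1 was the highest of all 6 samples for 13 (14.2% of all genes). Of the day 10 samples, replicate 1 was the lowest of all 6 for 11 members (22.9% of all genes). Without day 14 replicate 2, 18 of 34 members had separated days, all higher on day 14, where 15.3% of all genes did. These 18 include *Ccl17*, at 0 in all day 10 samples and above the filter only through day 14. They also include *Cxcl11* and *Ccl22*, at most 0.513 and 1.23 FPKM. Without that replicate, *Ccl11*, *Cxcl2*, *Cxcl14*, *Cxcl16*, *Ccl5* and *Cxcl9* had an adjusted p under 0.05 from limma, where 0.386% of all genes tested did. Leaving out the sample that was lowest of day 14 for most members makes such calls more likely by the choice itself. Leaving out any other single sample gave 0 or 1 members with an adjusted p under 0.05 from limma.

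Day 14 replicate 2 also stood apart in markers of other cells. The 10 OB markers summed to 53984 to 103192 FPKM on day 10 and to 46286, 77347 and 39446 FPKM on day 14, sums carried mainly by *Col1a1*, *Col1a2*, *Sparc* and *Ibsp*. All 10 were above 0 in every sample, and 5 were over 2-fold lower on day 14 (8.39% of all genes), with a median log2 fold change of −1.03 over the list. *Sp7*, a transcription factor of the OB lineage, measured 73.7, 51.1 and 40.1 FPKM in the day 10 samples and 9.79, 27.9 and 4.09 FPKM in the day 14 samples, with separated days. Chondrocyte markers (7 genes) summed to 1241, 1031 and 623 FPKM on day 10 and to 167, 2212 and 146 FPKM on day 14. The 12 monocyte and macrophage markers summed to 36.2, 131 and 121 FPKM on day 10 and to 244, 19.5 and 617 FPKM on day 14, with *Adgre1*, *C1qa*, *C1qb* and *Fcgr1* at 0 in day 14 replicate 2. The 6 dendritic cell and MHC class II markers summed to 24.8, 87.0 and 61.4 FPKM on day 10 and to 391, 31.2 and 533 FPKM on day 14. Of the 10 neutrophil markers 9 were listed, and they summed to 11.5, 271 and 9.95 FPKM on day 10 and to 56.6, 1.49 and 62.8 FPKM on day 14, with *S100a8* and *S100a9* at 0 in day 14 replicate 2.

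The order of the 6 samples from low to high was the same for *Ccl6* as for the summed monocyte and macrophage markers. The lowest *Ccl6* values, in day 14 replicate 2 and day 10 replicate 1, rested on an estimated 2.0 reads each, so their order is uncertain. *Lyz2* was the largest part of the marker sum in day 14 replicates 1 and 3 (160 and 454 FPKM). Unlike *Ccl6*, *Lyz2* was higher in day 10 replicate 3 (83.3 FPKM) than in day 10 replicate 2 (71.9 FPKM). Day 10 replicate 2, the highest sample for *Ccl3* and *Ccl4*, was also the highest for the summed neutrophil markers. The part of such cells in these values was not tested. In all, 18 of the 25 members were, like the myeloid markers, higher in replicates 1 and 3 of day 14 than in replicate 2. They included *Ccl2*, *Ccl5*, *Ccl7*, *Ccl8*, *Ccl11*, *Cxcl5*, *Cxcl9*, *Cxcl10*, *Cxcl12*, *Cxcl14* and *Cxcl16*, and by a small margin *Cxcl1*. On day 14, replicate 2 was also lowest for stromal progenitor (738, 418 and 868 FPKM) and endothelial (8.19, 4.2 and 6.8 FPKM) marker sums. The same held for T and NK cell (7.08, 3.35 and 7.77 FPKM), platelet and lymphatic endothelial sums. OB, chondrocyte, pericyte and mast cell sums were the highest of day 14 in that replicate, and B cell and osteoclast sums lay in between. The part of any of these cells was not tested for these members either. *Cxcl2* was at 69.1 FPKM and *Cxcl1* at 1956 FPKM in day 14 replicate 2. There the monocyte and macrophage and the neutrophil sums were the lowest of the 6 samples and the chondrocyte sum (2212 FPKM) the highest. The cell source of *Cxcl1* and *Cxcl2* was not tested. *Ptprc*, which encodes CD45, was between 0.134 and 2.99 FPKM in the 6 samples. Endothelial markers (8 genes) summed to 1.52 to 3.99 FPKM on day 10 and to 4.2 to 8.19 FPKM on day 14, and T and NK cell, B cell, lymphatic endothelial and mast cell markers to at most 7.77, 2.33, 1.14 and 4.86 FPKM. Platelet and pericyte markers summed to at most 17.6 and 37.2 FPKM, osteoclast markers to 446 to 487 FPKM on day 10 and 627 to 675 FPKM on day 14, and stromal progenitor markers to 309 to 490 and 418 to 868 FPKM. The osteoclast sums were mainly *Ctsk* (403 to 425 and 574 to 614 FPKM). The median log2 fold change of that list was −0.18, and *Ocstamp*, below 1 FPKM, was lower with separated days. *Ly6a* was the largest part of the stromal progenitor sums. In that list *Lepr* was lower on day 14 (log2 fold change −1.61) and *Pdgfrb* and *Kitl* were higher, each with separated days. No gene of these 14 marker lists had an adjusted p under 0.05 from limma, the smallest being 0.305, and 9 had an unadjusted p under 0.05, where 10.0% of all genes did.

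**Figure D4:**
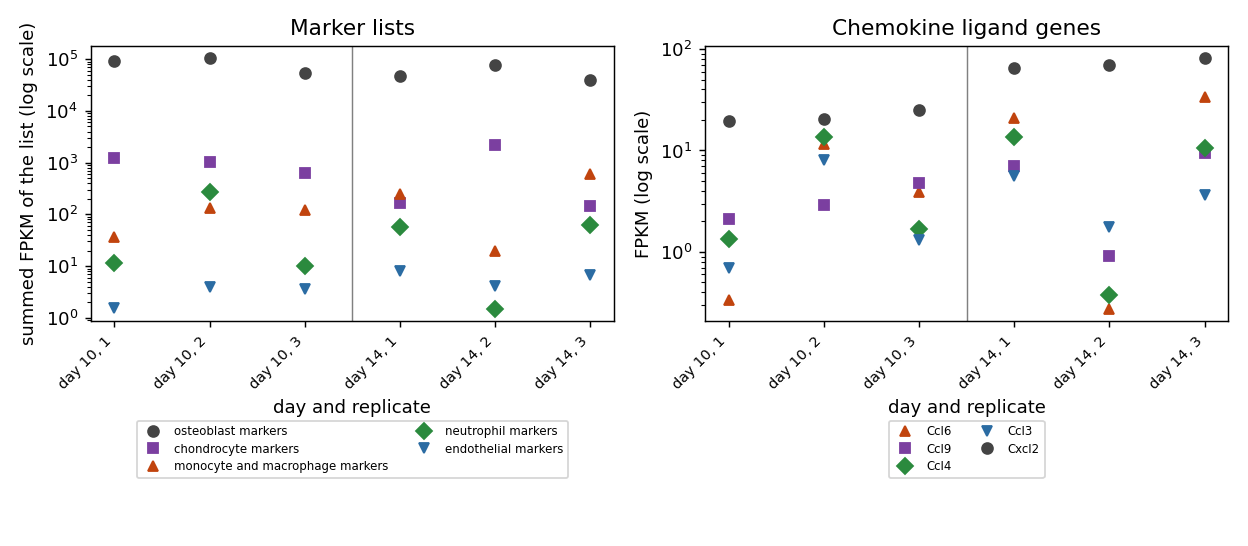
Summed FPKM of 5 marker lists (left) and FPKM of 5 members (right) in each sample, both on log axes, with day 10 left and day 14 right of the grey line. In day 14 replicate 2 the monocyte and macrophage, neutrophil, *Ccl6*, *Ccl4* and *Ccl9* values are the lowest of the 6 samples. The chondrocyte marker sum is the highest there, at 2212 FPKM, and *Cxcl2* is at 69.1 FPKM. The cell source of these values was not tested.

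The receptors for these ligands were scarce in the sorted OBs. Of 23 receptor genes 21 passed the filter, 9 were below 1 FPKM in every sample, and none had an adjusted p under 0.05 from limma (2 had an unadjusted p under 0.05, where 10.0% of all genes did). *Ackr3*, a scavenging receptor of CXCL12 listed under its older symbol Cxcr7, was the most abundant, measuring 139, 196 and 90.5 FPKM in the day 10 samples and 101, 140 and 118 FPKM in the day 14 samples, with overlapping days. *Cxcr4*, the signalling receptor of CXCL12, was at most 0.879 FPKM, and *Cxcr2* at most 1.47 FPKM. *Ackr4* and *Ccrl2*, which bind chemokines without classical signalling, had means of 6.68 and 5.77 FPKM. *Ccr7*, the receptor of *Ccl19*, measured 0.115, 0 and 0.290 FPKM in the day 10 samples and 2.85, 0.858 and 4.72 FPKM in the day 14 samples, with separated days. The platelet chemokine genes *Pf4* and *Ppbp*, which the symbol rule does not take, had means of 7.67 and 0.548 FPKM, with overlapping days.

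Genes of the pathways that act upstream of many chemokines were compared in the same fit. Of 23 inflammatory cytokine and NF-kB pathway genes, none had an adjusted p under 0.05 from limma, while 11 had an unadjusted p under 0.05, all higher on day 14 (5.6% of all genes), and 8 had separated days, higher on day 14 (7.59% of all genes). *Il6* had the smallest adjusted p (0.116), measuring 105, 87.4 and 97.2 FPKM in the day 10 samples and 214, 199 and 218 FPKM in the day 14 samples, and like *Cxcl2* its day 14 replicate 2 stood close to the other two. *Icam1*, an adhesion molecule for leukocytes, measured 16.4, 30.0 and 30.1 FPKM in the day 10 samples and 73.7, 47.3 and 94.9 FPKM in the day 14 samples, and *Nfkb1* at 3.81, 5.02 and 4.13 and at 7.44, 10.7 and 17.3 FPKM. The 3 most abundant genes of the list were *Zfp36*, *Ptgs2* and *Nfkbia*, with means of 494, 373 and 354 FPKM, and of these *Nfkbia*, the NF-kB inhibitor, had separated days (log2 fold change 0.94, SE 0.21).

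Of 15 interferon response genes, 1 had an unadjusted p under 0.05, where 10.0% of all genes did, and none an adjusted p under 0.05 from limma. *Gbp2*, a guanylate-binding protein gene, measured 11.3, 11.7 and 17.3 FPKM in the day 10 samples and 59.7, 20.7 and 48.5 FPKM in the day 14 samples, with separated days, and *Irf1* and *Isg15* overlapped, with means of 63.5 and 20.4 FPKM. Of 14 immediate early and heat shock genes, 4 had an unadjusted p under 0.05, all higher on day 14 (5.6% of all genes), and none an adjusted p under 0.05 from limma, the smallest being 0.1 for *Hsph1*. *Hsph1*, a chaperone gene, measured 12.9, 10.9 and 14.6 FPKM in the day 10 samples and 36.7, 45.1 and 31.7 FPKM in the day 14 samples, and *Hspa1b* (uncertain against its near-identical copy *Hspa1a*) and *Dnajb1* also had separated days. The most abundant genes of this list, *Fos*, *Dusp1* and *Egr1*, overlapped between the days, at means of 1537, 844 and 800 FPKM. The number of collagenase digestions differed with the day, and its part in these values cannot be told apart from that of the day.

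As for depth, all FPKM of a sample together came to 431898 to 486940, with 16646 to 19698 genes above 0. From the steps between low FPKM values, 4541000 to 7776817 mapped reads per sample were estimated. At that depth *Cxcl1* rested on an estimated 6188 to 26998 reads per sample and *Cxcl2* on 177 to 1048, and such estimates and floors cover counting error only.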

How the data were processed

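RNA-seq of ECFP+ OBs covered 3 day 10 and 3 day 14 samples. According to the methods and the submitters' processing notes, the authors aligned single-end reads of 75 bases against mm10 with TopHat2 2.0.13, Bowtie2 2.2.3 and SAMtools 0.1.19 and deposited FPKM per gene from Cufflinks 2.2.1, 1 file per sample. The gene annotation and the treatment of reads matching several genes are not given in the sources used here. In 1 file, 25 symbols turned into dates were restored by position. Positions are those of GENCODE vM21, in which all 38 members were found.

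limma 3.58.1 in R 4.3.3 (eBayes with a mean-variance trend) was run on log2(FPKM + 0.1), keeping 19526 genes whose mean FPKM exceeded 0.1, with day as the only factor and Benjamini-Hochberg adjustment over these genes. A difference was called over 2-fold from the fitted means, and the days were called separated where all 3 values of a day lay above all 3 of the other. The procedure was tested on simulated data. Genes within 200000 bases of each other were read as neighbours.

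Mapped reads were estimated from 1977 genes with 1 annotated transcript of 1500 to 8000 bases with values of at most 0.3 FPKM. The depth of each sample and a common fragment length were chosen so that the largest share of values lay within 0.1 reads of a whole count. The fragment length so chosen was 235 bases. At this maximum the share was 74.7% to 79.3%, so the estimates are approximate and were not used for a test. Reads of members were estimated with the longest annotated transcript of each gene.

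The members and all gene lists were chosen with earlier results of these data known. Members with a mean of at least 1 FPKM are given with their values. Of the receptor and pathway lists, the 3 genes with the highest mean are named, with up to 3 over 2-fold with separated days and a mean of at least 1 FPKM. *Cxcr4*, *Cxcr2*, *Ptprc*, *Pf4*, *Ppbp*, the markers at 0 and the OB, osteoclast and stromal progenitor markers were named in addition after their values were seen. The lists covered receptors, platelet chemokines, inflammatory and NF-kB, interferon, and immediate early and heat shock genes, and markers of OBs, chondrocytes, osteoclasts, stromal progenitors, pericytes, endothelium, lymphatic endothelium, platelets and leukocytes. Alternatives were another pseudocount, filter, scaling, variance model, a replicate block, the genes in the adjustment, and leaving out each sample.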

Additional observations from a re-analysis of the deposited data

How the results depend on the processing

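Of members over 2-fold higher on day 14, 17 were reported. That count was 14 with a pseudocount of 1 and 14 with a filter of a mean FPKM above 1. It was 16 with scaling to the FPKM sum outside the 20 highest genes and 14 to 23 when each sample was left out. The count of members over 2-fold lower on day 14, 2 as reported, was 0 with a pseudocount of 1, 0 with a filter of a mean FPKM above 1, 4 with scaling to the FPKM sum outside the 20 highest genes, and 1 to 5 when each sample was left out in turn. That scaling shifted the median log2 fold change of all genes by −0.13. The count of members with an adjusted p under 0.05 from limma, 1 as reported, was 0 without the mean-variance trend, 0 with the replicate block, 0 with microRNA and small nucleolar RNA genes left out of the adjustment (a setting chosen after seeing the data), and 0 to 6 when each sample was left out, with 6 without day 14 replicate 2. For *Cxcl2* the log2 fold change stayed between 1.57 and 1.83 over 14 settings and the adjusted p between 0.0123 and 0.187, with 0.0573 in the replicate block. The same-numbered samples correlated across genes with r of 0.058, −0.006 and 0.089 in their deviations from the day means, so the numbers were not taken as pairs. On leaving out single samples, the count of members with separated days was 10 to 18, and that of inflammatory, of interferon and of immediate early and heat shock genes with an adjusted p under 0.05 was 0 to 1 each, with 1 in each list without day 14 replicate 2.

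Of the 25 members with a mean of at least 1 FPKM, 24 had a value in every setting and 16 of these kept their direction. *Ccl26* had none without day 14 replicate 2, since it was then at 0 throughout. The log2 fold changes of the other 8 crossed 0 when 1 sample was left out: *Cxcl3* (−1.01 to 0.77), *Ccl6* (−0.09 to 3.29), *Ccl4* (−0.55 to 1.87), *Ccl9* (−0.27 to 1.36), *Ccl3* (−0.01 to 1.67), *Ccl24* (−0.13 to 0.94), *Ccl27a* (−1.17 to 2.08) and *Ccl25* (−0.39 to 0.17). The cause was not tested. Depth limits the members under about 1 FPKM, which rest on few reads, and some above it. Examples are *Ccl4* (an estimated 0.9 to 32.4 reads per sample), *Ccl3* (1.8 to 24.0) and *Ccl24* (3.9 to 13.9).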
